A study of Mus musculus with 3 samples.

Results

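The Zbtb genes encode transcription factors with a BTB domain at one end and C2H2 zinc fingers at the other. Their members were taken here as every gene in the count table whose symbol is Zbtb followed by digits and, at most, 1 letter, which gave 40 of 49997 genes. Another 2 symbols that begin with Zbtb, Zbtb8os and Zbtb11os1, name other transcripts and were left out. Levels of these RNAs were read from RNA immunoprecipitation sequencing (RIP-seq) of YTHDF2, in which RNA recovered with an antibody to the protein (the IP) is sequenced beside total RNA (the input). All 3 libraries came from E14 mouse embryonic stem cells (ESCs) treated with doxycycline (Dox) for 24 h, and the comparison asks which transcripts YTHDF2 pulls down in cells with DUX switched on. The cells carried a Dox-inducible Dux transgene and a tdTomato reporter driven by the MERVL promoter, in the input and the IP alike. There was 1 input library and 2 YTHDF2 IP libraries, named IP replicates 1 and 2, and nothing in the labels says that the replicates came from separate cultures. No IP with a control antibody was analysed here, so a higher share of a transcript in the IP is an association with the YTHDF2 precipitate over the input and was not measured against unspecific recovery.

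The BTB domain pairs these proteins with each other and docks corepressors such as NCoR and BCOR, and in some members the ubiquitin ligase scaffold CUL3, whereas the zinc fingers read DNA sequence or methylated CpG. Members are best known for fixing lymphocyte fate (ThPOK and PLZF), for holding back cell cycle inhibitor genes, and for binding methylated DNA or telomere repeats. YTHDF2 is a cytoplasmic reader of N6-methyladenosine (m6A), a mark that is laid down on adenosine within short motifs, often near the stop codon, and it brings methylated mRNAs to decay enzymes.

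The total count was 36986994 for the input library and 35259827 and 35888743 for IP replicates 1 and 2. A gene was called enriched or depleted when edgeR's quasi-likelihood test gave a Benjamini-Hochberg adjusted p below 0.05 over all 19601 genes tested and the fold change between IP and input was over 2. All 9 ESC markers were found at 261 to 1806 CPM (a count scaled to its library's total) in the input, and their summed level was 8429 CPM in the input, 9040 and 8993 CPM in the IP. Of these, Nanog, Zfp42, Dppa5a and Utf1 were lower in both IP libraries and the others were higher. The 6 markers of the 2-cell-like state summed to 1702 CPM in the input and 2811 and 2807 CPM in the IP. Zscan4c and Zscan4d made up most of these sums, and Usp17la was at 276, 285 and 297 CPM. Of the fibroblast or feeder markers, 5 of 5 were above the floor of 3 counts in the input, with a range of 0.189 to 204 CPM. Their sum was 234 CPM in the input against 105 and 114 CPM in the IP. Vim made up most of that sum, while Col1a1, Acta2 and Col1a2 were at 2.03, 0.838 and 0.189 CPM in the input. Whether such cells were present was not tested, nor was any part of them in the Zbtb values.

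The m6A motif was looked for as GGACT, one common form of it, on the transcript strand of 1 RefSeq mRNA per gene. It was present in 36 of 40 Zbtb mRNAs (90%), against 91.25% of the 15188 tested genes with an mRNA, and lay within 100 bases of the end of the stop codon in 9 of 40 (22.5%), against 24.7%. Both shares were near those of all genes. The 25-base windows below hold the motif nearest the stop codon in the 5 enriched members where it lay within 100 bases, and in Zbtb33, the depleted member, with GGACT in capitals. They are shown because they are where a methylated adenosine could sit in the transcripts described next, and whether any is methylated was not measured here. Sequences are from RefSeq on GRCm38.p6 and are written 5′ to 3′ along the mRNA.
Zbtb22, chr17:33918871-33918895, plus strand, 3′ UTR, starting 82 bases after the stop codon: ttacctcggtGGACTtgtatatatt
Zbtb42, chr12:112680705-112680729, plus strand, 3′ UTR, starting 60 bases after the stop codon: ctcctgggtgGGACTctggggcaga
Zbtb5, chr4:44993281-44993305, minus strand, 3′ UTR, starting 75 bases after the stop codon: tcttgtcactGGACTcggtctcact
Zbtb2, chr10:4368544-4368568, minus strand, coding sequence, starting 78 bases before the end of the stop codon: ttggcagtggGGACTcagaagtaac
Zbtb48, chr4:152019825-152019849, minus strand, coding sequence, starting 15 bases before the end of the stop codon: ctgttcccgaGGACTgtgacacgta
Zbtb33, chrX:38193937-38193961, plus strand, coding sequence, starting 285 bases before the end of the stop codon: atccttctggGGACTcaaagcttta
The other 5 enriched members had their nearest motif farther away, from 203 bases after the stop codon in Zbtb32 to 1134 bases before its end in Zbtb12. No GGACT was found in the mRNAs of Zbtb20, Zbtb24, Zbtb25 and Zbtb46.

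All 40 members passed the filter on low counts. Of these, 10 were enriched in the YTHDF2 IP (25%), where 15% of all genes tested were, and 1 was depleted (2.5%), where 13% of all genes were. At any fold change, 26 members were higher in the IP at an adjusted p below 0.05 (28.4% of all genes), 4 were lower (28.9% of all genes), and 10 did not pass in either direction. Both IP libraries lay above the input for 29 members (44.2% of all genes) and both below it for 9 (45.3% of all genes), while for Zbtb20 and Zbtb41 the IP libraries lay on opposite sides. The median log2 fold change of the 40 members was 0.66, with quartiles of 0.01 and 0.97, whereas the median of all genes was 0.0063, with quartiles of -0.72 and 0.81. Summed over the family, the level was 1026 CPM in the input against 1815 and 1741 CPM in IP replicates 1 and 2.

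The median log2 ratio of a single IP library to the input was 0.645 in both, and the difference between the replicates' ratios had an SD of 0.194 over members, against 0.772 over all genes. The median input level was also higher in the members, at 18.3 CPM against 9.60 CPM over all genes tested, and its part in this contrast was not tested. The ratios of both IP libraries rest on the same input library. The spread behind every p comes from the 2 IP libraries, since the input had no replicate, and with the dispersion set to 0.1 in its place 1 member, Zbtb22, remained enriched (adjusted p = 0.0047, likelihood ratio test of edgeR), where 8.05% of all genes did. No other member passed then at any fold, and no member was depleted, where 7.81% of all genes were. Scaling the libraries by their totals gave 15 enriched members and 1 depleted (16.9% and 11.1% of all genes), and scaling to TPM, which counts reads per length of exon, gave 15 and 0 (18.2% and 10.2% of all genes).

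**Figure D1:**
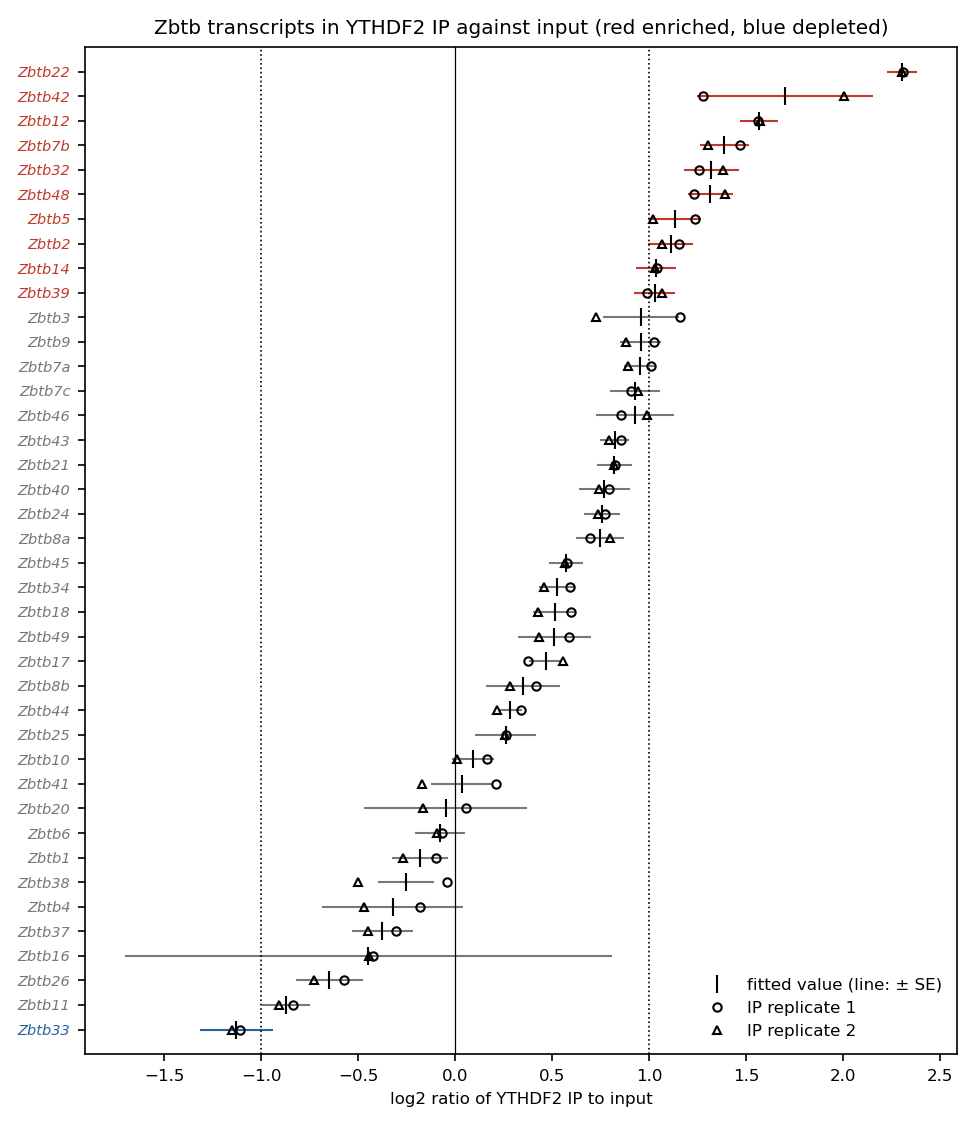
Log2 ratio of YTHDF2 IP to input (x axis) for each of the 40 Zbtb members (y axis, ordered by fitted value), with circles for IP replicate 1, triangles for IP replicate 2, a tick for the fitted log2 fold change and a horizontal line for its SE. Names in red are enriched, in blue depleted and in grey neither, and dotted lines mark a 2-fold difference. Values run from 2.30 in Zbtb22 to -1.13 in Zbtb33, and both replicates lie above 0 for 29 members.

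The most enriched member was Zbtb22, a little characterised factor encoded in the major histocompatibility region (chr17:33916176-33919325, plus strand). It gave 1228 input counts against 6197 and 6271 counts in IP replicates 1 and 2, so that both IP libraries lay far above the input and close to each other. This was a log2 fold change of 2.30 ± 0.077 (SE), or 4.94-fold, with an adjusted p of 7.53e-25 by edgeR, higher than the value of 95.2% of all genes tested. Zbtb22 is among 4 members that the annotation also places on alternate sequences of the assembly, and whether reads were lost to these was not tested. Zbtb39 (chr10:127739530-127747349, plus strand), the other enriched gene among the 13 less characterised members, had 921, 1864 and 1997 counts and a log2 fold change of 1.03 ± 0.105. Counts given in a row of 3, here and for other genes, are those of the input, IP replicate 1 and IP replicate 2, and values with ± are log2 fold changes with their SE. Its IP replicate 1 lay just below a 2-fold ratio (0.99 on the log2 scale). The 13 had a median of 0.52, with 8 higher and 2 lower in the IP at any fold (28.4% and 28.9% of all genes). The lowest of them was Zbtb26, with 499 input counts against 342 and 312 IP counts (log2 fold change -0.65 ± 0.173, adjusted p = 0.00148). The other lower one was Zbtb37, with 560, 462 and 425 counts (-0.38 ± 0.157, adjusted p = 0.04). With the trend on GC content removed, as described further on, neither passed (nor by DESeq2), and Zbtb26 was at -0.04 (adjusted p = 0.871) and Zbtb37 at 0.16 (adjusted p = 0.382).

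The role lists that follow share some members, such as Zbtb4 and Zbtb7b, which are counted in each list that holds them. Genes with a known part in cell cycle and growth control were mostly higher in the IP. Of 7 such genes, 6 were higher at any fold (28.4% of all genes), 2 of these by over 2-fold (15% of all genes), and the list had a median of 0.93. With the GC trend removed, the median was 0.38, 4 of the 7 were higher and none was enriched. Zbtb5 and Zbtb2 both encode repressors of the cell cycle inhibitor gene p21. Zbtb5 (chr4:44991242-45012412, minus strand) had 490 input counts against 1177 and 1027 IP counts, a log2 fold change of 1.13 ± 0.135 (adjusted p = 3.63e-09). Zbtb2 (chr10:4367074-4388108, minus strand) had 685, 1556 and 1485 counts, a log2 fold change of 1.11 ± 0.117 (adjusted p = 1.29e-10). For each of them both IP libraries were more than 2-fold above the input.

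The paralogs Zbtb7a and Zbtb7c lay just under the fold threshold. Zbtb7a, which encodes the proto-oncogenic globin repressor LRF, had 1625, 3339 and 3120 counts and a log2 fold change of 0.95 ± 0.084. Zbtb7c had 549, 1050 and 1094 counts and a log2 fold change of 0.93 ± 0.129. Both were called enriched when the libraries were scaled by their totals, and with the GC trend removed they were at 0.31 and 0.52. Zbtb17 encodes Miz-1, the partner through which MYC represses genes, and had 1996, 2636 and 3033 counts, a smaller difference of 0.47 ± 0.086 on the log2 scale that did not pass with the GC trend removed (-0.01, adjusted p = 0.939). Zbtb49, reported to act with Miz-1 on p21, was likewise higher, with a log2 fold change of 0.51 ± 0.187 (adjusted p = 0.0189), but it did not pass with the GC trend removed (0.38, adjusted p = 0.0778) or by DESeq2 (adjusted p = 0.169). The exception was Zbtb4, which had 98, 88 and 73 counts and did not pass (log2 fold change -0.32 ± 0.363, adjusted p = 0.472).

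Of 4 members that bind methylated CpG or are tied to DNA methylation, 1 was depleted (13% of all genes) and none was enriched (15%). Zbtb33 encodes Kaiso, which binds methylated CpG, and was the only depleted member of the family (chrX:38189793-38197046, plus strand). It had 491 input counts against 232 and 229 IP counts, both less than the input by over 2-fold, which gave a log2 fold change of -1.13 ± 0.188 (adjusted p = 2.21e-06), or 2.19-fold lower. Scaling to TPM, the fixed dispersion and the removal of the trend with GC content described further on each ended this call. With TPM the log2 fold change was -0.98 (adjusted p = 7.79e-06), just short of 2-fold, with the fixed dispersion it stayed at -1.13 (adjusted p = 0.143), and removing the GC trend gave -0.49 (adjusted p = 0.0248). Of its exonic bases, 9.25% overlap Tmem255a, and reads over both genes were left out by the counter's defaults. The related methyl-CpG binders Zbtb38 and Zbtb4 also had both IP libraries below the input, but neither passed the test. Zbtb38 had 1005, 996 and 735 counts (log2 fold change -0.25 ± 0.145, adjusted p = 0.143), and its replicates differed, with log2 ratios of -0.04 and -0.50. Zbtb24, which is mutated in an immunodeficiency with loss of DNA methylation at centromeric repeats, stood apart from these with 1352, 2357 and 2333 counts and a log2 fold change of 0.75 ± 0.093 (adjusted p = 5.39e-09). The median of the 4 genes was -0.29.

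Of the 3 telomere-binding members, Zbtb48 was enriched (15% of all genes) and 2 were higher at any fold (28.4%). Their median was 0.77, or 0.46 with the GC trend removed, when all 3 were higher but Zbtb48 came to 0.74 and none was enriched. It encodes TZAP, which trims long telomeres (chr4:152019773-152027675, minus strand), and had 685 input counts against 1639 and 1862 IP counts, a log2 fold change of 1.31 ± 0.116 (adjusted p = 1.82e-12). Zbtb40 was higher by less than 2-fold, with 547, 968 and 948 counts (0.77 ± 0.132). Zbtb10, which binds variant telomere repeats, had 1255, 1436 and 1309 counts and did not pass (0.09 ± 0.108, adjusted p = 0.505).

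Among 9 members known from blood and lymphocyte lineages, 2 were enriched (15% of all genes) and 5 were higher at any fold (28.4% of all genes), with a median of 0.47. With the GC trend removed 1 of them, Zbtb32, was enriched, and Zbtb1 passed as higher (0.35, adjusted p = 0.0394). Zbtb11, needed for neutrophil development, was placed in the list of other tissues below and is not counted here. It was lower in the IP (-0.87, or -0.49 with the GC trend removed). Zbtb7b encodes ThPOK, the factor that commits thymocytes to the CD4 lineage (chr3:89377644-89393673, minus strand). It had 534 input counts against 1507 and 1362 IP counts, a log2 fold change of 1.39 ± 0.125 (adjusted p = 3.09e-12). Zbtb32, a repressor that restrains activated lymphocytes (chr7:30589680-30602819, minus strand), had 398, 971 and 1073 counts and a log2 fold change of 1.32 ± 0.139 (adjusted p = 1.54e-10). Zbtb46, a marker of classical dendritic cells, was lower in level, with 203, 375 and 418 counts (0.93 ± 0.202, adjusted p = 1.49e-04), and was called when libraries were scaled by their totals.

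The 4 members of this list that did not pass were Zbtb1, Zbtb16, Zbtb20 and Zbtb25. Zbtb25, a T cell repressor, had 448, 547 and 555 counts (0.26 ± 0.156, adjusted p = 0.16), and Zbtb1, needed for lymphoid progenitors, had 638, 607 and 548 counts (-0.18 ± 0.145, adjusted p = 0.294). These neighbours lie head to head on chromosome 12 with overlapping 5′ ends, and reads over both were left out as well. Zbtb16, which encodes PLZF of innate-like T cells and spermatogonial stem cells, had 12, 9 and 9 counts, and its log2 fold change of -0.45 ± 1.25 (adjusted p = 0.786) means that a difference was not detectable at this depth. Zbtb20 had 65, 69 and 60 counts (-0.05 ± 0.42, adjusted p = 0.93), and its sign changed with the scaling of the libraries. Of its exonic bases 24.3% overlap other genes.

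Members tied to germ cells, pluripotency or the early embryo included 3 enriched genes of 8 (15% of all genes), with 7 higher at any fold (28.4%) and a median of 0.89. Once the GC trend was removed, 1 of them, Zbtb14, was enriched, while Zbtb12 and Zbtb7b were at 0.77 and 0.69. Zbtb17, which this list also holds, then no longer passed as higher (-0.01, adjusted p = 0.939). Zbtb12, described as a barrier to dedifferentiation of pluripotent cells (chr17:34894559-34896867, plus strand), had 875 input counts against 2637 and 2687 IP counts. Its log2 fold change was 1.57 ± 0.097 (adjusted p = 7.33e-17), with IP replicates that almost coincided at log2 ratios of 1.56 and 1.57. Zbtb14 encodes ZF5, a repressor at GC-rich promoters (chr17:69383175-69390752, plus strand), and had 953, 1999 and 2017 counts, a log2 fold change of 1.04 ± 0.103 (adjusted p = 3.30e-11). Of its exonic bases 11.7% overlap Gm49894. Zbtb43, a factor of male germ cell chromatin, was higher by less than 2-fold, with 2354, 4339 and 4213 counts (0.82 ± 0.075). Zbtb7b is the third enriched gene of this list, and the member that did not pass was Zbtb16.

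Of 5 members known from nervous system, muscle and other tissues, 1 was enriched (15% of all genes). Zbtb42, a gene of skeletal muscle (chr12:112678648-112682747, plus strand), had 30 input counts against 75 and 126 IP counts. Its log2 fold change was 1.70 ± 0.452 (adjusted p = 0.00147), and the replicates lay apart, with log2 ratios of 1.28 and 2.00. Zbtb18, a repressor in cortical neurons, was higher with 1026, 1581 and 1425 counts (0.51 ± 0.111), as was Zbtb45, a gene of glial differentiation, with 1622, 2468 and 2489 counts (0.57 ± 0.088). After removal of the GC trend Zbtb45 was at -0.17 and did not pass (adjusted p = 0.0798). Zbtb11, needed for neutrophil development and mitochondrial function, was lower in the IP. It had 1123 input counts against 641 and 619 IP counts, a log2 fold change of -0.87 ± 0.124 (adjusted p = 1.22e-07), and 14.0% of its exonic bases overlap Rpl24 or Zbtb11os1.

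**Figure D2:**
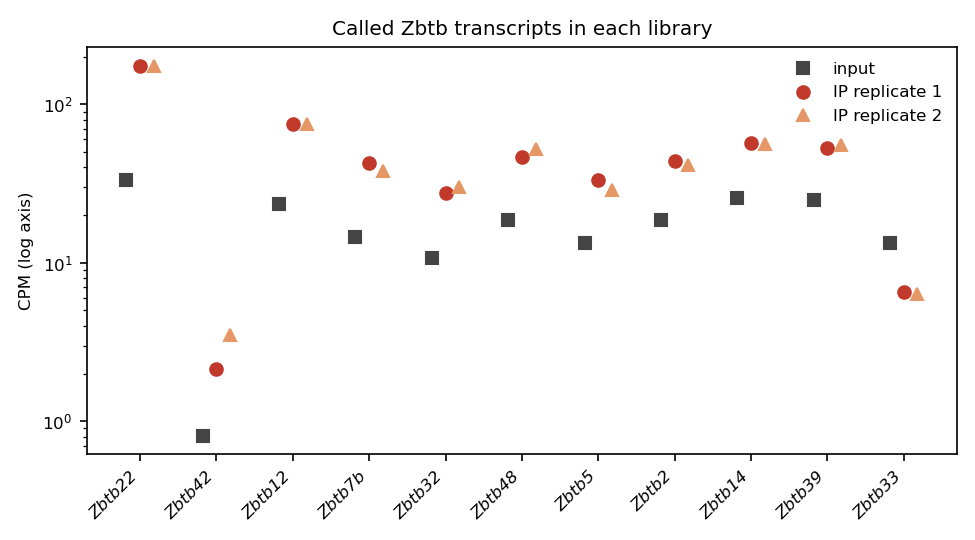
Level in CPM (y axis, log scale) of the 10 enriched members and of Zbtb33 (x axis) in the input (squares), IP replicate 1 (circles) and IP replicate 2 (triangles). Both IP libraries stand above the input for the first 10 genes and below it for Zbtb33. Zbtb42 has the lowest level, at 0.811 CPM in the input.

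At the fold threshold, Zbtb39 at 1.03 and Zbtb14 at 1.04 lay just inside and Zbtb3 at 0.96 and Zbtb9 at 0.95 just outside, each nearer to the threshold than its SE (0.103 to 0.196). The called members Zbtb5, Zbtb2 and Zbtb33 were also nearer to it than their SE, as were Zbtb7a, Zbtb7c and Zbtb46 outside it. Zbtb3 had 242 input counts against 551 and 414 IP counts, and its replicates fell on either side of the threshold, at log2 ratios of 1.16 and 0.72. In all, 9 members were over 2-fold above the input in both IP libraries (17.2% of all genes) and 13 in at least 1 (23.4% of all genes).

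Per length of exon, the most abundant member in the input was Zbtb44, at 18.7 CPM per kb, followed by Zbtb45 at 16.5, Zbtb17 at 14.7, Zbtb22 at 12.7, and Zbtb43 and Zbtb12 at 12.2 each. In the IP the order of levels changed. Zbtb22 came first, at 67.4 and 67.0 CPM per kb in IP replicates 1 and 2, and Zbtb12 came next, at 38.5 in both. Zbtb44, the gene with most counts in every library, had 6911 input counts against 8926 and 8315 IP counts, a log2 fold change of 0.28. The lowest levels in the input were those of Zbtb16 and Zbtb20, at 0.0417 and 0.0512 CPM per kb. Over the 40 members the log2 fold change showed little relation to the input CPM (Spearman's rho 0.0707, Pearson's r 0.0181). With the input CPM per kb the values were larger (rho 0.369, r 0.314).

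Members that lie side by side in the genome were compared as well. Zbtb34 and Zbtb43, 18962 bases apart on chromosome 2, were both higher in the IP (log2 fold changes 0.52 and 0.82). Zbtb6 and Zbtb26, 1248 bases apart on the same chromosome, had log2 fold changes of -0.08 and -0.65, and Zbtb6 did not pass (adjusted p = 0.623). With the GC trend removed they were at 0.62 (adjusted p = 1.22e-04) and -0.04, and Zbtb6 was also just above 0 with libraries scaled by their totals or to TPM. Zbtb8a and Zbtb8b on chromosome 4 had log2 fold changes of 0.75 and 0.35, and Zbtb8b did not pass (adjusted p = 0.121). Of the exonic bases of Zbtb8a, 17.9% overlap another gene. Differences between neighbours were not tested.

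The coding sequence of Zbtb genes is simple. The median member had 2 coding exons, against 8 over all genes tested, and 12 of 40 (30%) had their whole coding sequence in 1 exon, against 7.34% of all. Of those 12, 5 were enriched, Zbtb5, Zbtb12, Zbtb22, Zbtb39 and Zbtb42 (15% of all genes), and 1 was depleted, Zbtb33 (13% of all genes). Removal of the GC trend left 2 of them, Zbtb22 and Zbtb42, enriched. The median log2 fold change was 0.96 in these 12 and 0.55 in the 28 members with more coding exons, of which 5 were enriched. With the GC trend removed the medians were 0.73 and 0.54. The share above 0 went the other way, with 7 of the 12 (58.3%) and 23 of the 28 (82.1%), against 50.2% of all genes. Both ends of the family's range were thus single-exon coding genes, and over members the number of coding exons tracked the fold change only loosely (Spearman's rho -0.185, Pearson's r -0.115). Over all 15188 tested genes with an mRNA, the correlation was -0.298 and -0.195.

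GC content followed the fold change more closely than any other feature compared. The exons of the members held 37.4% to 61.7% GC, with a median of 50.7% (49.7% over all genes). Spearman's rho between GC content and log2 fold change was 0.688 and Pearson's r 0.715 over the 40 members, against 0.362 and 0.331 over 15201 protein-coding genes. Of the 20 members at or above the median GC content, 9 were enriched (15% of all genes) and 18 were higher at any fold (28.4%), and none passed as lower (28.9%). Of the 20 below it, 1 was enriched (Zbtb14) and 8 were higher, and all 4 that were lower belonged here, before any removal of the trend. The GC content of the coding sequence alone (rho 0.549, r 0.617) and of the 3′ UTR alone (rho 0.653, r 0.632) gave like values. Longer members tended to lower fold changes (rho -0.625, r -0.43 for the length of merged exons), but GC content and length were themselves related (rho -0.592, r -0.444). GGACT motifs per kb had rho 0.373 and r 0.317. All points share the same 3 libraries, and these correlations are given as a description.

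The trend with GC content was a feature of the whole experiment. Over all genes, the median log2 fold change was -0.78 in those with a GC content near 38.8% and 0.48 in those near 58.8%. When this trend was removed, the median of the 40 members was 0.60, against -0.04 for all genes, and GC content then had rho 0.15 and r 0.195 with the fold change. By the same test, 5 of the 40 members were then enriched, Zbtb14, Zbtb21, Zbtb22, Zbtb32 and Zbtb42, a share near the 13.3% of all genes. No member was depleted, where 11.4% of all genes were. At any fold 27 members were then higher (26.5% of all genes) and 2, Zbtb11 and Zbtb33, were lower (29% of all genes). Zbtb22 kept a log2 fold change of 1.72, Zbtb42 1.14, Zbtb14 1.11 and Zbtb32 1.10. Zbtb21, at 44.7% GC, went from 0.82 to 1.14. The others fell under 2-fold, from 0.95 for Zbtb5 and Zbtb2 to 0.69 for Zbtb7b, and Zbtb33 came to -0.49. Zbtb7a, at 60.0% GC, went from 0.95 to 0.31, and Zbtb45 and Zbtb17 came to -0.17 and -0.01. Zbtb1, Zbtb6, Zbtb20 and Zbtb37 turned from below to above 0.

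**Figure D3:**
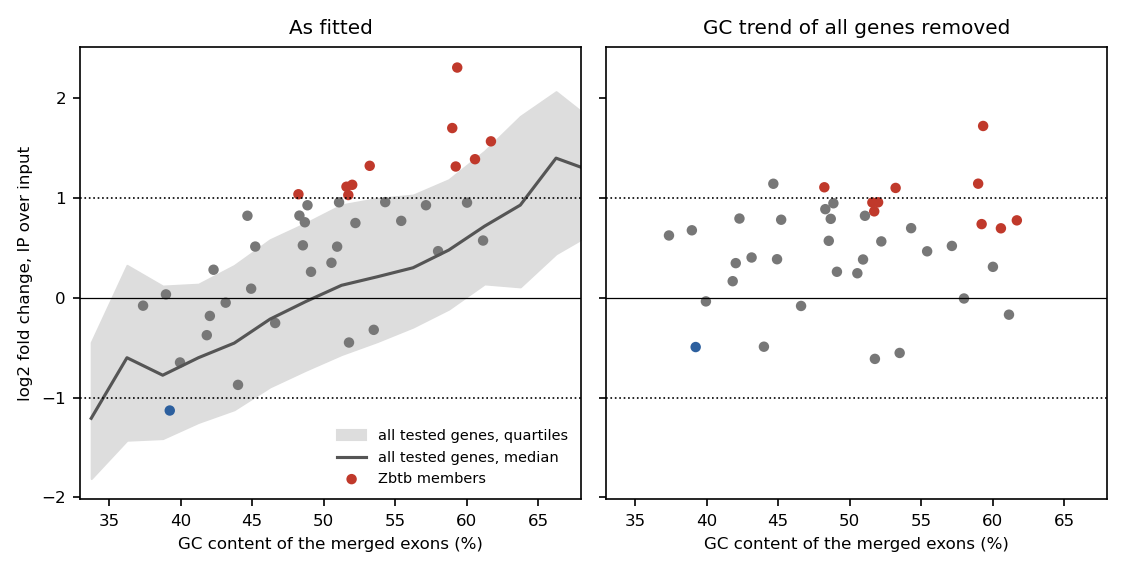
Log2 fold change of YTHDF2 IP over input (y axis) against the GC content of the merged exons in percent (x axis), as fitted (left) and with the trend over all genes removed (right). Points are the 40 Zbtb members, coloured in both panels by their call as fitted (red enriched, blue depleted, grey neither), the line and shaded band are the median and quartiles of all tested genes in bins of GC content, and dotted lines mark 2-fold. The members rise with GC content on the left, and most stay above 0 on the right, with a median of 0.60.

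Other genes of the same pathways were set beside the family. Of 379 tested zinc finger genes named Zfp plus digits, which mostly lack a BTB domain, 95 were enriched (25.1%) and 19 depleted (5.01%), and their median log2 fold change was 0.55. Of 30 tested Klhl genes, which carry a BTB domain without zinc fingers, 5 were enriched (16.7%, near the 15% of all genes) and 2 depleted (6.67%, against 13%), and their median was 0.14. With the GC trend removed, the medians were 0.73 for Zfp and 0.29 for Klhl genes. The values of the Zbtb family thus lay nearer those of the Zfp genes than those of the Klhl genes, and the difference between lists was not tested.

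Of 8 BTB zinc finger genes that carry other names (Bcl6, Bcl6b, Hic1, Hic2, Mynn, Gzf1, Patz1 and Zfp131), 3 were higher in the IP at any fold (28.4% of all genes) and 1, Mynn, was lower (28.9%). Hic2, a paralog of the tumour suppressor gene Hic1, was the enriched one (12.5% of the list, against 15% of all genes). It had 2262 input counts against 6264 and 6257 IP counts, a log2 fold change of 1.43 ± 0.071 (adjusted p = 8.94e-20). The median of the 8 genes was 0.18.

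Transcripts of the proteins that BTB zinc fingers recruit were described in the same way. Of 17 corepressor and CUL3 partner genes, none was enriched (15% of all genes) and 2 were depleted (11.8%, near the 13% of all genes). At any fold 7 were lower (28.9% of all genes) and 1 was higher (28.4%), and the median was -0.08, or -0.27 with the GC trend removed. Hdac1, a histone deacetylase of several corepressor complexes, had 9705 input counts against 1974 and 2133 IP counts (log2 fold change -2.28 ± 0.065, adjusted p = 1.03e-26). Ncor1, which encodes NCoR, had 5557, 1809 and 1842 counts (-1.65 ± 0.072, adjusted p = 2.18e-21). The higher one was Hdac4, another histone deacetylase, with 925, 1611 and 1594 counts (0.75 ± 0.109). Cul3 itself had 6592, 7648 and 6913 counts and did not pass (0.10 ± 0.066, adjusted p = 0.182).

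**Figure D4:**
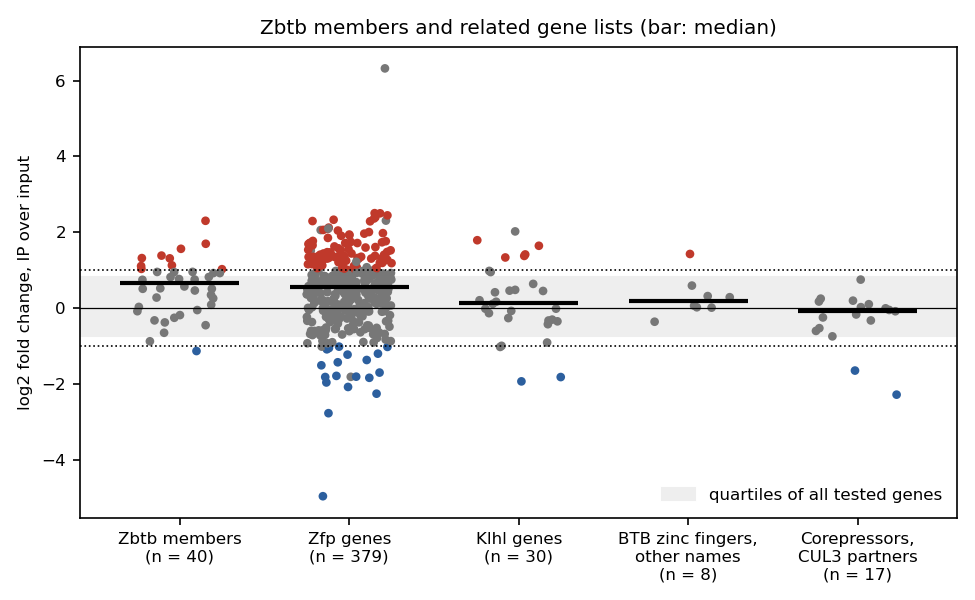
Log2 fold change of YTHDF2 IP over input (y axis) for the tested genes of 5 lists (x axis), with 1 point per gene in red where enriched, blue where depleted and grey where neither. Thick bars are medians, 0.66 for the Zbtb members and 0.55, 0.14, 0.18 and -0.08 for the others from left to right, the band spans the quartiles of all tested genes, and dotted lines mark 2-fold.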

How the data were processed

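RIP-seq counts of 1 input and 2 YTHDF2 IP libraries were used, grouped by their titles. Per the study's methods, lysate was incubated with anti-YTHDF2 and bound RNA was recovered on beads, whereas the labels describe purified RNA used in the IP, and the counts do not settle which applies. Libraries were stranded and paired-end. Per the submitters' processing notes and the file headers, the authors used fastp 0.19.4, HISAT2 2.2.1 (mm10), featureCounts 2.0.3 and DESeq2 1.40.2. The deposited values are raw counts per gene over RefSeq exons, with no use of strand. Each mate was counted on its own, so even numbers made up 61.4%, 64.5% and 64.7% of the counts from 1 to 100 in input, IP replicate 1 and IP replicate 2, and counting noise is larger than the counts imply. By the counter's defaults, reads with several places or over several genes were left out. Zbtb8a, Zbtb8b, Zbtb12 and Zbtb22 also have exons on alternate sequences of the assembly, and whether reads were lost to these was not tested.

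The analysis used edgeR 4.0.16 (R 4.3.3). filterByExpr kept 19601 genes, libraries were scaled by TMM (0.957, 1.02 and 1.02), and the quasi-likelihood F test was run with robust dispersions (1 residual degree of freedom, coefficient of variation 7.33%) and Benjamini-Hochberg adjustment. Log2 fold changes use edgeR's default prior count, and the SE was derived from the F statistic. Ratios of single libraries add 0.5 to each count and include the TMM factors, whereas CPM uses library totals alone. Counts were also simulated with the common dispersion in all 3 libraries and with no GC trend. Of 200 changed genes 90.8% were recovered, with 1 false call. These settings hold no separate spread of the input, so the simulation does not speak to that spread or to the GC trend. The floor of 3 counts was 0.0811 to 0.0851 CPM. All 40 members matched RefSeq on GRCm38.p6 (the assembly of mm10) with the same start and end, and coordinates are 1-based. Sequence features use exons on main chromosomes. Trends on GC content and length were removed by a lowess offset (span 0.3).

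Members, role lists and tests were chosen with earlier results of these data known. Named were all called members, all members with a known role, and the extremes of the less characterised ones. Zbtb3, Zbtb6, Zbtb8a, Zbtb8b, Zbtb9, Zbtb21, Zbtb34, Zbtb37, Zbtb41, Zbtb44, Hdac4, Cul3 and Mynn were named after their values were seen. Zbtb47 of the lists did not match under that symbol and may be the gene named Zfp651, which was counted with the Zfp genes, and 1 gene of the corepressor list is not reported here and was left out of its counts. Alternatives were another scaling, filter, test (DESeq2 1.42.0), dispersion, halved counts, the trend removals and leaving out each IP replicate.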

Additional observations from a re-analysis of the deposited data

How the results depend on the processing

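The median log2 fold change of the members stayed above 0 throughout. It was 0.6622 with DESeq2 size factors, 0.7556 with library totals, 0.8108 with scaling to TPM, 0.6836 with no filter, 0.7686 with a mean of at least 100 counts (36 members tested), 0.7447 with halved counts (39 tested), 0.5958 with the GC trend removed, 0.6038 with the length trend removed and 0.6766 with DESeq2. Leaving out 1 IP replicate gave 0.6457 to 0.6509. Library totals and TPM also moved the median of all genes, to 0.10 and 0.16. Enriched members numbered 1 with a dispersion of 0.1 (8.05% of all genes) and 5 with the GC trend removed (13.3% of all genes), and depleted members 0 under both and with TPM. With a mean of at least 100 counts, 9 were enriched and 1 was depleted, and Zbtb42 was not tested. Library totals and TPM each gave 15 enriched members, adding Zbtb3, Zbtb7a, Zbtb7c, Zbtb9 and Zbtb46 (16.9% and 18.2% of all genes were enriched, 11.1% and 10.2% depleted). DESeq2, its size factors, no filter, halved counts, length and unadjusted p gave the same 10 enriched genes and Zbtb33. Without IP replicate 2, Zbtb39 was at 0.993, and Zbtb42 at 1.29 (2.02 when replicate 1 was left out instead). In that same setting without IP replicate 2, Zbtb3, Zbtb7a and Zbtb9 rose to 1.16, 1.015 and 1.03.

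Among the 40 members, the sign of the value turned in 6 with the GC trend removed, where Zbtb1 came to 0.346, Zbtb6 to 0.6225, Zbtb20 to 0.402, Zbtb37 to 0.165, Zbtb17 to -0.00853 and Zbtb45 to -0.171. Library totals and TPM gave 0.0457 and 0.101 for Zbtb20 and 0.01564 and 0.07093 for Zbtb6, and Zbtb20 was at 0.0196 with the length trend removed. Leaving out 1 IP replicate put Zbtb20 at 0.0622 and turned the sign of another member, Zbtb41 (-0.17). Zbtb37 also missed the adjusted p with library totals, TPM, no filter, the length trend removed and DESeq2. The causes were not tested. No paired analysis was possible because there was a single input library, which serves both IP libraries and whose label carries no replicate number. With no input replicate and no control antibody, the spread of the input and unspecific recovery stay unmeasured.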
